A study of Mus musculus with 8 samples.

Results

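Toll-like receptors are membrane receptors with which macrophages sense microbial molecules. TLR1, TLR2, TLR4, TLR5 and TLR6 sit mainly at the cell surface and bind lipopeptides, lipopolysaccharide or flagellin. TLR3, TLR7, TLR8, TLR9 and TLR13 sit in endosomes and bind nucleic acids. On binding they recruit the adaptors MyD88 or TRIF, whose kinases release NF-kB and interferon regulatory factors to switch on cytokine and interferon genes. The 10 receptor genes Tlr1 to Tlr9 and Tlr13 were taken from the deposited gene count table by gene name. All 10 had a row among the 54532 gene rows, and all 10 had counts, but 9 passed the expression filter, since Tlr5 did not.

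RNA was sequenced from macrophages of the mouse peritoneal cavity after stimulation with thioglycollate broth, which provokes an influx of white blood cells. Men1, which encodes menin, a scaffold of histone H3K4 methyltransferase complexes, was wild type (WT) or knocked out (KO). The 8 libraries fall into 3 M_WT, 3 M_KO, 1 F_WT and 1 F_KO library, each with its own number in the title. All 4 groups had the broth. The letters M and F are kept as the titles write them, and the labels give no age, strain, allele design or Cre driver. The labels do not say whether the libraries came from separate animals, so p-values measure only the spread between these libraries, which may be technical.

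Total counts ran from 18206427 to 22853583 per library, and a count of 0 allows up to 3 counts, or 0.120 to 0.170 CPM. CPM are counts per library size, here scaled by TMM over the 8 libraries. Floors, and the Clopper-Pearson intervals of ratios of F_KO to F_WT, cover counting error only. The intervals of fold changes from the M libraries rest on the spread between libraries. Men1 itself was at 17.1 to 25.7 CPM in M_WT and 6.45 to 8.42 CPM in M_KO, while F_WT had 18.1 CPM and F_KO 11.7 CPM. The macrophage label was checked on 7 markers, all of them counted in every library, with Adgre1 (F4/80) at 1209 to 2112 CPM and Csf1r at 1235 to 2097 CPM. Their summed level was 17254 to 25375 CPM in M_WT and 14425 to 16735 CPM in M_KO, most of it Lyz2. B cell markers were present at low levels, with a sum of 64.8 to 157.9 CPM in M_WT, 90.2 to 258.5 CPM in M_KO, 190.9 CPM in F_WT and 291.7 CPM in F_KO. T and NK cell markers summed to at most 0.79 CPM. These are bulk libraries, in which fewer cells of a type and less RNA per cell cannot be told apart.

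Wild-type macrophages carried far more Tlr2 than any other receptor transcript. In deposited FPKM, which divides by gene length and so allows genes to be compared, the M_WT level of Tlr2 was 353.8 ± 14.99 (SD, n = 3), or 74.1% of the summed FPKM of the 10 genes. Tlr7 followed at 42.1 ± 5.57, Tlr13 at 31.8 ± 10.8 and Tlr4 at 23.7 ± 4.20 FPKM. Tlr8, at 9.16 ± 3.24, and Tlr1, at 8.68 ± 2.72 FPKM, were next. Tlr6 was at 4.76 ± 1.39, Tlr9 at 1.79 ± 1.05 and Tlr3 at 1.62 ± 0.68 FPKM. Tlr5, the flagellin receptor, was last at 0.040 ± 0.045 FPKM, from 0 to 8 counts per M_WT library.

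The steps in this order were of unequal size. Tlr2 was 8.41-fold above Tlr7 in mean FPKM, Tlr4 was 2.59-fold above Tlr8, and Tlr6 was 2.66-fold above Tlr9. Of the 9 pairs of neighbours, 5 had M_WT ranges that did not overlap: Tlr2 and Tlr7, Tlr4 and Tlr8, Tlr1 and Tlr6, Tlr6 and Tlr9, and Tlr3 and Tlr5. The ranges of the other 4 pairs overlapped: Tlr7 and Tlr13, Tlr13 and Tlr4, Tlr8 and Tlr1, and Tlr9 and Tlr3. Within libraries, Tlr13 was nevertheless below Tlr7 in all 8, at 0.523 to 0.930 of its FPKM. F_WT gave 401.6 FPKM for Tlr2, 38.9 for Tlr7, 32.6 for Tlr13, 22.0 for Tlr4 and 10.5 for Tlr1. In that library Tlr1 stood above Tlr8, which was at 8.49 FPKM. The endosomal genes made up 16.99% to 19.7% of the summed FPKM in M_WT and 12.1% to 19.8% in M_KO, and their share was 16.0% for F_WT and 16.7% for F_KO. The other 2 murine receptor genes, Tlr11 and Tlr12, had at most 6 and 1 counts in any library.

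**Figure D1:**
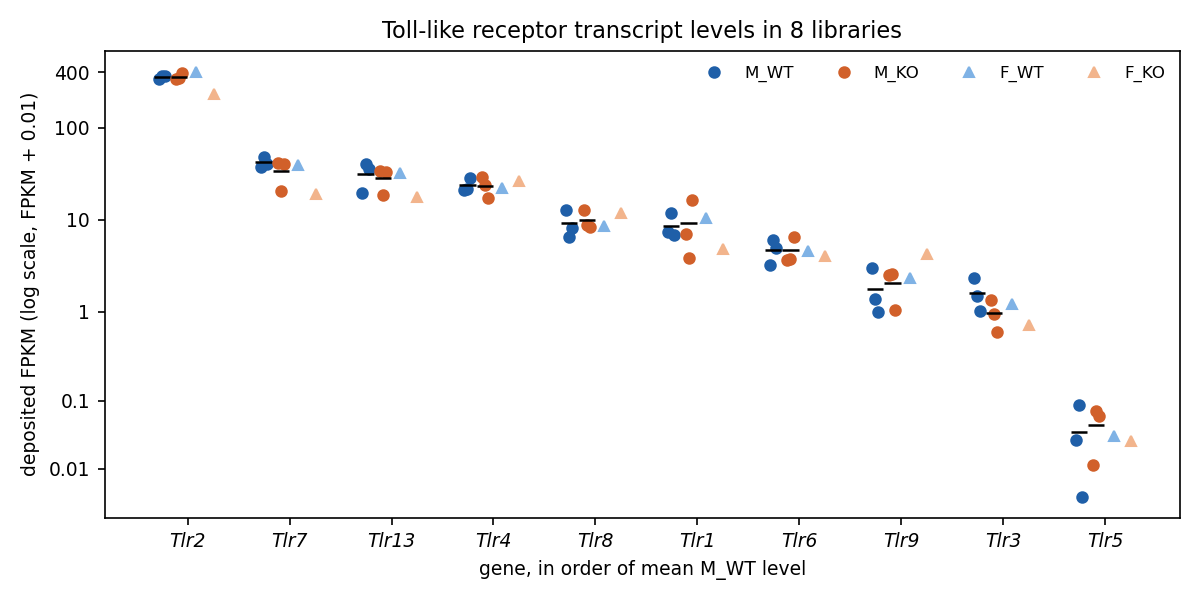
Deposited FPKM of the 10 receptor genes, on a log axis after adding 0.01, for each of the 8 libraries. Circles are M libraries, triangles F libraries, and black bars the mean of 3 libraries. Tlr2 stands apart at 231.3 to 401.6 FPKM, Tlr5 lies at or under 0.09 FPKM, and M_WT and M_KO points overlap for every gene.

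No receptor gene separated M_KO from M_WT. With edgeR's quasi-likelihood test and Benjamini-Hochberg adjustment over 13646 genes, 0 of the 9 tested members were called, against 0.022% of all genes, and 0 had an unadjusted p under 0.05, against 9.56%. DESeq2 called 0 of the 9 and 1.5% of all genes with an adjusted p. The authors' deposited table, which lists all 10, calls 0 of them and 0.553% of its genes. For 0 of the 9 did the 3 M_KO and 3 M_WT libraries fail to overlap, against 16% of all genes (9.09% with M_KO above and 6.95% with M_KO below). The median log2 fold change was -0.01, with 5 members lower and 4 higher, beside 0.01 over all genes tested. Men1 itself, at 35.8% of its M_WT level in M_KO, was not called by edgeR either (adjusted p = 0.284). DESeq2 did call Men1 (adjusted p = 1.75e-06). In counts simulated from the M libraries, edgeR recovered 9.4% of 2-fold and 74.2% of 4-fold changes. A missed threshold therefore does not show equal levels, so the 95% intervals of the edgeR fold changes are given below for each member.

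Among the surface receptors, Tlr2 (ENSMUSG00000027995, chromosome 3, 83836272 to 83841767, minus strand, GRCm38) pairs with TLR1 or TLR6 to bind bacterial lipopeptides. Its CPM was 1011, 1087 and 1108 in M_WT_5643, M_WT_6258 and M_WT_6255, and 1013, 1047 and 1217 in M_KO_5944, M_KO_5645 and M_KO_5642. The groups overlapped, with M_KO_5642 highest. Its log2 fold change was 0.02 (SE 0.14, edgeR adjusted p = 0.969), with a 95% interval of 0.805-fold to 1.28-fold, the narrowest of the 9. Permuting the 6 library labels (exact, two-sided) gave p = 0.8, where 0.1 is the smallest this design allows. F_WT had 1232 CPM of Tlr2 and F_KO 701 CPM. That ratio of 0.569 (95% Clopper-Pearson interval 0.557 to 0.580) rests on 1 library each, and F_KO was the lowest of the 8 libraries.

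The genomic window around the Tlr2 start is shown because this gene set the level of the family. It runs from 250 bases before to 50 after a RefSeq start (chr3:83841559-83841858, minus strand, GRCm38.p6), with capitals kept for matches to 3 motifs. The letters searched on both strands were GAAA, any 2 bases and GAAA for interferon regulatory factors, GAGGAA for the core of the myeloid factor PU.1, and GGGA, any 1 base and TTTCC for NF-kB. No match to these letters occurs in this window. Other forms of these binding sites were not searched, so the window may still hold one.
Tlr2: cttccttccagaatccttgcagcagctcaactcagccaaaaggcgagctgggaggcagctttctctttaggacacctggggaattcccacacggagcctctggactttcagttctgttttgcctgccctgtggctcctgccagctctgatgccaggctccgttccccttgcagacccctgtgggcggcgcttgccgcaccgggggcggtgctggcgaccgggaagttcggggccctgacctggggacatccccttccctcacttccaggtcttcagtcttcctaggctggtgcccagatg

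Tlr1 and Tlr6, the partners of Tlr2, are neighbours on the minus strand of chromosome 5. Tlr1 (ENSMUSG00000044827) spans 64924679 to 64933563 and Tlr6 (ENSMUSG00000051498) 64952031 to 64960097, with 18467 bases and 0 annotated genes between them. Their coding sequences share an identical run of 229 bases, in the last exon of both genes (chr5:64925537-64925765 in Tlr1 and chr5:64953828-64954056 in Tlr6, GENCODE M21). It is shown because reads within it cannot be assigned to 1 of the 2 genes.
Tlr1 and Tlr6: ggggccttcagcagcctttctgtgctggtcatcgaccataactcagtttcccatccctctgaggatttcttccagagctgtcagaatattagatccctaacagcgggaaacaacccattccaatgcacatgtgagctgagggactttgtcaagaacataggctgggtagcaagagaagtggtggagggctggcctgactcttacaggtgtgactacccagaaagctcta
Of all windows of 100 bases in the longest Tlr1 transcript, 8.85% also occur in Tlr6, and 7.24% of those of Tlr6 occur in Tlr1. How such reads were counted is not given in the sources used here, so both values carry this uncertainty. Apart from Tlr3, which shares 0.418% of such windows with Gm45542, a gene with 0 counts in all 8 libraries, the other 7 members share 0 windows of this length with another gene.

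Tlr1 was the member with the widest range, 2.11 log2 units over the 8 libraries. M_WT had 24.5, 39.5 and 23.3 CPM (in the order given for Tlr2) and M_KO 23.3, 13.1 and 56.9 CPM. M_KO thus held both the highest and the lowest of the 6 values. On the log2 scale the fold change was 0.09 (SE 0.52, edgeR adjusted p = 0.969), with an interval of 0.453-fold to 2.50-fold, and without M_KO_5642 it was -0.68 (edgeR adjusted p = 0.511). In M_KO_5642 the sum of the 6 resident peritoneal macrophage markers was also lowest, at 953.2 CPM against 2875 to 5268 CPM in the other 7 libraries. Timd4 of this list was at 61.0 CPM in M_KO_5642 and 194.1 to 586.2 CPM elsewhere. In the F pair 4 of the 6 markers were higher and 2 lower in F_KO, with a median log2 difference of 0.78. Icam2 was among the lower, at 161.3 CPM in F_KO against 185.0 CPM in F_WT. The part of these markers in the Tlr1 level was not tested. Tlr1 reached 35.9 CPM in F_WT against 16.2 CPM in F_KO, a ratio of 0.450 (Clopper-Pearson interval 0.396 to 0.512).

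Tlr6 was at 12.2, 22.5 and 18.7 CPM in M_WT and 13.8, 14.2 and 25.1 CPM in M_KO. The groups overlapped, and M_KO_5642 was again highest. This gave a log2 fold change of -0.01 (SE 0.32, edgeR adjusted p = 0.994; interval 0.589-fold to 1.67-fold). With Tlr1 and Tlr6 counted as 1 row, an alternative chosen after seeing the data, the log2 fold change was 0.05 (edgeR adjusted p = 0.978). The summed level then ran from 36.6 to 62.0 CPM in M_WT and from 27.4 to 82.0 CPM in M_KO. The ratio of Tlr1 to Tlr6 in FPKM was 1.38 to 2.24 in M_WT and 1.03 to 2.53 in M_KO.

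By a fixed rule, the 5 protein-coding genes most like Tlr1 over the 8 libraries were Slc29a1, S100a4, Sept8, Lpcat1 and Ccl6. Their mean absolute difference from Tlr1 in centred log2 CPM was 0.16, 0.16, 0.17, 0.17 and 0.19, where the median over 11630 candidates was 0.57. These genes are listed for their pattern over 8 libraries only.

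Tlr4 (ENSMUSG00000039005, chromosome 4, 66827584 to 66930284, plus strand) encodes the lipopolysaccharide receptor, which works with MD-2 and CD14. M_WT libraries had 116.3, 120.1 and 160.4 CPM, and M_KO libraries 161.8, 134.5 and 97.9 CPM. M_KO_5642, the M library with the highest Tlr1, Tlr2 and Tlr6, had the lowest Tlr4. The log2 fold change was -0.01 (SE 0.22, edgeR adjusted p = 0.989; interval 0.686-fold to 1.43-fold). F_WT had 124.7 CPM and F_KO 146.5 CPM. Tlr5 (ENSMUSG00000079164, chromosome 1, 182954788 to 182976044) had 3, 8 and 0 counts in M_WT, 1, 7 and 8 in M_KO, with 4 for F_WT and 3 for F_KO. At this depth no genotype difference of Tlr5 could be detected.

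Among the endosomal receptors, Tlr7 and Tlr13 had the most similar pattern across libraries. Tlr7 (ENSMUSG00000044583, chromosome X, 167304929 to 167330558, minus strand) senses single-stranded RNA, and Tlr13 (ENSMUSG00000033777, chromosome X, 106143204 to 106160493, plus strand) senses bacterial ribosomal RNA. Tlr7 was at 152.9, 197.1 and 166.5 CPM in M_WT and 170.2, 85.9 and 168.9 CPM in M_KO. M_KO_5645 was the low library, and the other 2 M_KO libraries lay within the M_WT range. Tlr13 was at 84.3, 173.3 and 153.6 CPM in M_WT and 146.7, 80.3 and 147.2 CPM in M_KO. M_KO_5645 was low again, but so was M_WT_5643. In the F pair Tlr7 went from 161.8 CPM in F_WT to 77.4 CPM in F_KO and Tlr13 from 142.8 to 75.9 CPM. Of the 36 pairs of tested members, Tlr7 and Tlr13 had the smallest mean absolute difference of centred log2 CPM over the 8 libraries (0.16), which describes these libraries only.

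Neither gene was called. The log2 fold change of Tlr7 was -0.29 (SE 0.27, edgeR adjusted p = 0.752; interval 0.524-fold to 1.28-fold) and -0.03 without M_KO_5645. That of Tlr13 was -0.14 (SE 0.33, edgeR adjusted p = 0.909; interval 0.523-fold to 1.57-fold), and it turned to 0.09 without M_KO_5645. Because Tlr7 and Tlr13 were low there, Tlr4 had rank 2 of the 10 genes by FPKM in M_KO_5645 and in F_KO_5639 and 3 or 4 elsewhere.

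Tlr8 (ENSMUSG00000040522, chromosome X, 167242696 to 167264329, minus strand) is the neighbour of Tlr7, 40599 bases away with 0 annotated genes between. Tlr8 had 45.7, 23.6 and 29.3 CPM in M_WT and 46.4, 32.3 and 30.7 CPM in M_KO, beside 31.0 CPM for F_WT and 42.6 CPM for F_KO. M_WT_5643 and M_KO_5944 were the high M libraries, 1 of each genotype. The log2 fold change was 0.14 (SE 0.28, edgeR adjusted p = 0.895; interval 0.692-fold to 1.76-fold). The ratio of Tlr8 to Tlr7 in FPKM was 0.137 to 0.340 in M_WT, 0.207 to 0.428 in M_KO, with 0.218 for F_WT and 0.626 for F_KO.

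Tlr9 (ENSMUSG00000045322, chromosome 9, 106222598 to 106226883, plus strand), the receptor for unmethylated CpG DNA, is also strongly expressed by B cells. Tlr9 had 10.3, 4.85 and 3.49 CPM in M_WT and 8.77, 9.07 and 3.71 CPM in M_KO. The groups overlapped almost entirely. It differed by a log2 fold change of 0.20 (SE 0.50, edgeR adjusted p = 0.918; interval 0.4998-fold to 2.63-fold), and 0.78 without M_WT_5643. F_KO had 15.04 CPM and F_WT 8.21 CPM, a ratio of 1.83 (Clopper-Pearson interval 1.52 to 2.20). Summed over 8 B cell markers, M_WT had 157.9, 69.3 and 64.8 CPM and M_KO 131.3, 258.5 and 90.2 CPM, with 190.9 for F_WT and 291.7 for F_KO. The 3 libraries with the lowest Tlr9 also had the 3 lowest B cell sums, and F_KO had the highest of both. The order differed between these: M_WT_5643 had more Tlr9 than M_KO_5645 and F_WT but a lower B cell sum than either. Neutrophil markers also summed highest in F_KO, at 17.9 CPM, with 3.61 CPM in F_WT and 10.3 CPM in M_KO_5944. The 5 genes closest to Tlr9 by the measure used for Tlr1, named after their values were seen, were Col14a1, Trib2, Pou2af1, Gimap8 and Acap1 (0.17 to 0.21, median of all candidates 0.65). Pou2af1 encodes a B cell coactivator. None of the 8 B cell markers was at 0 in every library, and the part of B cells in the Tlr9 level was not tested. The 6 plasmacytoid dendritic cell markers summed to 10.3 to 16.2 CPM in M_WT, 11.3 to 24.4 CPM in M_KO, 22.8 CPM for F_WT and 27.3 CPM for F_KO, again highest where Tlr9 was highest. Of these markers 3 passed the filter (Spib, Ccr9 and Cox6a2), with Spib, which B cells also express, at 5.01 to 20.3 CPM. Siglech was at most 0.39 CPM, and Klk1 was at 0 counts in all 8 libraries. The part of these cells in the Tlr9 level was not tested either.

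Tlr3 (ENSMUSG00000031639, chromosome 8, 45395665 to 45411080, minus strand), the receptor for double-stranded RNA that signals through TRIF, had the lowest fold change of the 9. Tlr3 counts came to 12.2, 7.78 and 5.32 CPM in M_WT and 7.02, 5.02 and 3.23 CPM in M_KO. M_KO_5944 lay above M_WT_6255, so the groups overlapped. On average M_WT had 8.43 ± 3.49 CPM and M_KO 5.09 ± 1.89 CPM (SD, n = 3 each), with M_KO at 60.4% of M_WT. The log2 difference was -0.74 (SE 0.40, edgeR adjusted p = 0.592; interval 0.309-fold to 1.164-fold), and the exact permutation test gave p = 0.2. It was -0.36 without M_WT_5643, the library with the highest Tlr3. F_WT had 6.43 CPM of Tlr3 and F_KO 3.77 CPM, a ratio of 0.586 (Clopper-Pearson interval 0.440 to 0.776).

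Tlr3 is itself a known interferon-stimulated gene, and a list of 20 such genes is given beside it. Its mean log2 CPM, centred on all 8 libraries, gave 1.97, 1.43 and 0.65 for M_WT, 1.05, -2.09 and -1.62 for M_KO, -0.68 for F_WT and -0.71 for F_KO. Tlr3 and the list were both highest in M_WT_5643, then in M_WT_6258 and then in M_KO_5944. Their order differed in the other 5 libraries: Tlr3 was lowest in M_KO_5642, the list in M_KO_5645, and F_WT and F_KO were alike for the list but not for Tlr3. In the M comparison all 20 listed genes had a lower fitted value in M_KO, where 48.5% of all genes did, and their median log2 fold change was -1.67. The list was chosen with earlier results of these data known, so its direction is no independent evidence. EdgeR and DESeq2 each called 0 of them, and 3 had every M_KO below every M_WT library, where 6.95% of all genes did. The 5 genes closest to Tlr3, also named after their values were seen, were Slfn9, Sp100, Adgrg6, Pml and Gpr171 (0.11 to 0.18, median of all candidates 0.51). Sp100 and Pml are nuclear body genes known to respond to interferon. The part of an interferon response in the Tlr3 level was not tested.

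**Figure D2:**
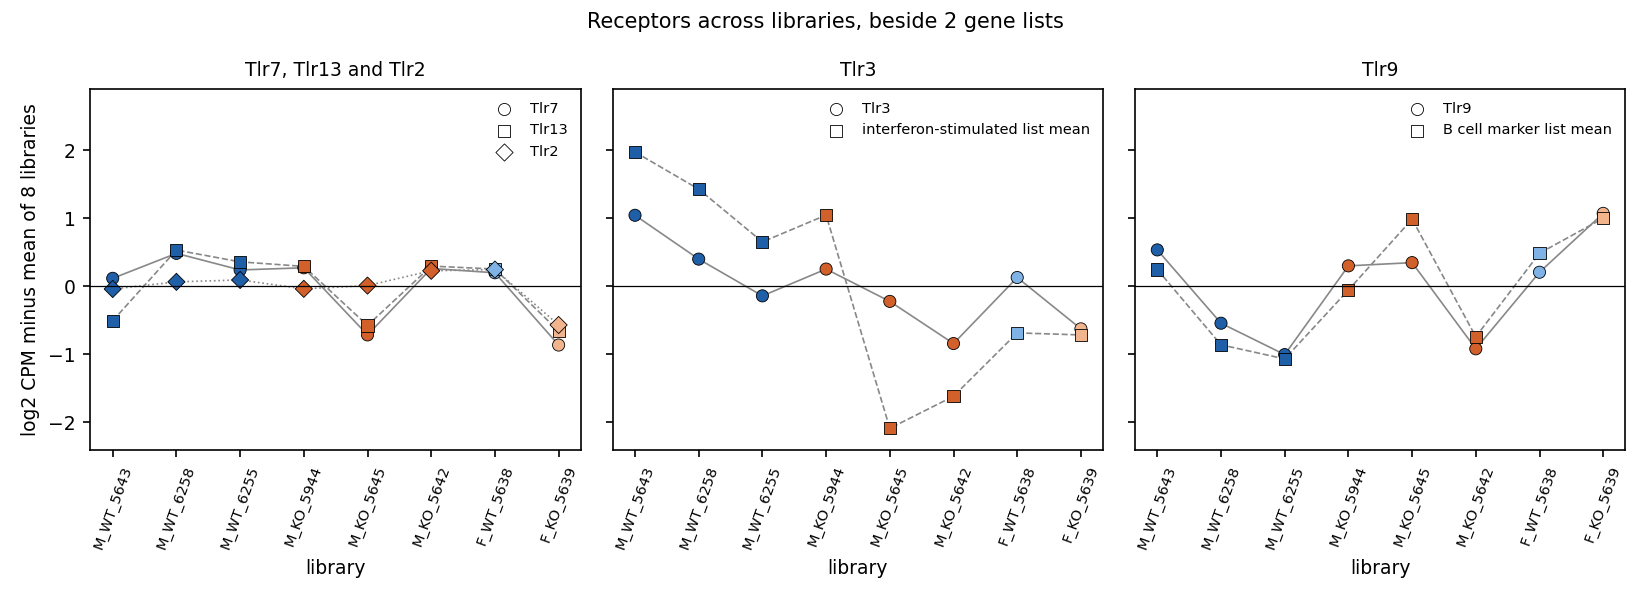
Log2 CPM of 5 receptor genes in each of the 8 libraries, centred on the mean of the 8, beside the centred means of the interferon-stimulated and B cell marker lists. Blue marks WT and orange KO, with paler tones for F, and the lines only guide the eye between libraries. Tlr7 and Tlr13 are low in M_KO_5645 and F_KO_5639, Tlr3 is highest in M_WT_5643, and Tlr9 and the B cell list are both highest in F_KO_5639.

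The windows around the starts of Tlr3, Tlr9 and Tlr13 are shown because the values of these genes are set beside other genes or lists above. They come from RefSeq (GRCm38.p6), at chr8:45410331-45410630 on the minus strand, chr9:106222348-106222647 on the plus strand and chrX:106143025-106143324 on the plus strand. The whole Tlr3 window lies within the gene as the count table places it (45395665 to 45411080). The last bases of the Tlr13 window matched no Tlr13 transcript of GENCODE M21 on either strand. Capitals mark the NF-kB letters in Tlr3 and the PU.1 core in Tlr9 and Tlr13, on either strand.
Tlr3: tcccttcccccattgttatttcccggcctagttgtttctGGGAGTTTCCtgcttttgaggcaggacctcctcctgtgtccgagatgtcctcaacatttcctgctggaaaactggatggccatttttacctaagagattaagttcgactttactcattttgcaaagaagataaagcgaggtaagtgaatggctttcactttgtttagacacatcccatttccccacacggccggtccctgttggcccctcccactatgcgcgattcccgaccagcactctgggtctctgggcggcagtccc
Tlr9: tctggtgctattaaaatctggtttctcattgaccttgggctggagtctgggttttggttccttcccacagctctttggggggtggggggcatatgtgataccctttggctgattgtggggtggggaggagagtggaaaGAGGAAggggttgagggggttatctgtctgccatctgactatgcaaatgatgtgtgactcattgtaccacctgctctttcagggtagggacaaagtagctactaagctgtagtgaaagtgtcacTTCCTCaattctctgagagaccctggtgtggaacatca
Tlr13: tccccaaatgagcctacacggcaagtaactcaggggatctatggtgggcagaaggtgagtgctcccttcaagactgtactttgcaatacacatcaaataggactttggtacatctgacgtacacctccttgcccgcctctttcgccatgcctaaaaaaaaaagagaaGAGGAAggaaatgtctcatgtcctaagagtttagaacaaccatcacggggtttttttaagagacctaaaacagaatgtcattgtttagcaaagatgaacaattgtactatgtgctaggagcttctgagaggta
Of the 10 members, 8 had such windows, 10 in all. The PU.1 core occurred in 4 of these 10 windows (Tlr1, Tlr8, Tlr9 and Tlr13), against 28.3% of all 32851 windows of this length. The NF-kB letters occurred in 1 window (Tlr3; 0.411% of all) and the interferon regulatory factor letters in 1 (Tlr6; 3.44% of all). Matches to different motifs overlapped in 0 of the 10 windows. A match describes the letters only, and a window without one says nothing of the factor.

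The F pair is 1 library per genotype and has no replicate check. Of the 9 tested members, 6 were lower and 3 higher in F_KO, where 51.6% of all tested genes were lower. Tlr1, Tlr2, Tlr3, Tlr7 and Tlr13 were lower by at least 1.5-fold, a threshold chosen after the values were seen and a difference that 14.1% of all tested genes had. Tlr9 alone was higher by as much, where 11.4% of all genes were. Tlr1, Tlr2 and Tlr4 differed in sign between the F pair (log2 -1.15, -0.81 and 0.23) and the M comparison (0.09, 0.02 and -0.01). The interaction of genotype with letter was not called for any of the 9 members, against 0.0218% of all genes. Its lowest p was that of Tlr2 (log2 -0.82, SE 0.28, unadjusted p = 0.0225, edgeR adjusted p = 0.965), and 4.36% of all genes had an unadjusted p under 0.05. In a joint fit of the 8 libraries that includes the letter, 0 members were called, against 0.00727% of all genes. The log2 fold changes there ran from -0.74 for Tlr3 (SE 0.33, edgeR adjusted p = 0.528) to 0.38 for Tlr9 (SE 0.42, edgeR adjusted p = 0.763). Tlr3 was the member whose M and F differences were closest (-0.74 and -0.75).

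**Figure D3:**
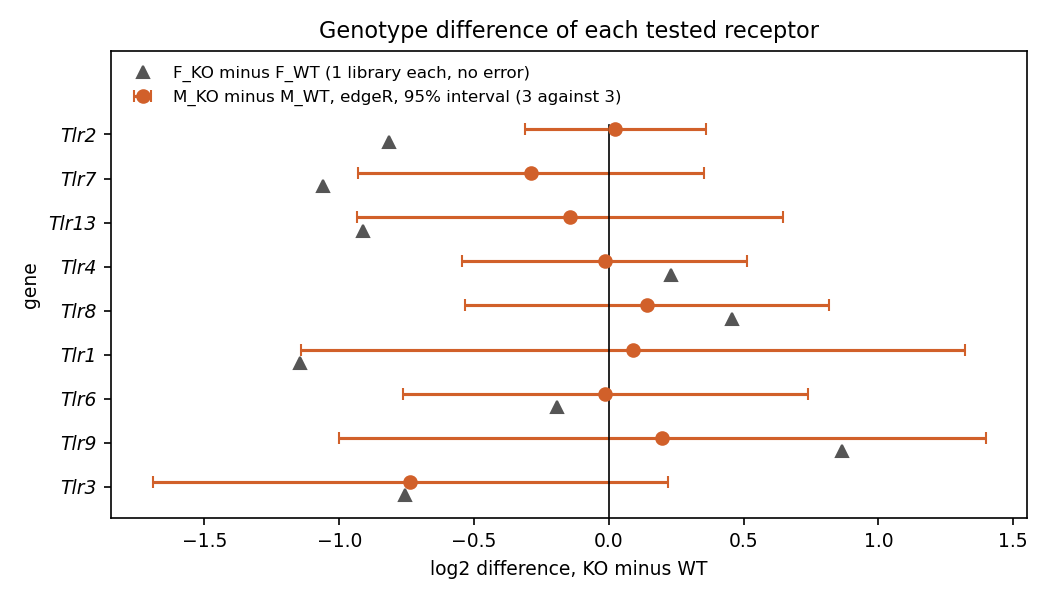
Log2 difference of KO minus WT for the 9 tested receptor genes. Circles give the edgeR fold change of 3 M_KO against 3 M_WT libraries with its 95% interval, and triangles the F pair, which has 1 library each and no error. Every interval includes 0, and the triangles of Tlr1, Tlr2 and Tlr7 lie outside theirs.

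The other genes of the pathway were read from lists by role. EdgeR called 0 genes of each of the 8 lists. The 7 co-receptors had 3 higher and 4 lower values in M_KO and a median log2 fold change of -0.03. Those with the smallest p were Clec7a, the beta-glucan receptor that works with TLR2 (log2 fold change 0.59, edgeR adjusted p = 0.515), Ly86 (-0.40), Cd36 (0.31) and Lbp (0.58). Ly96, which encodes the MD-2 partner of TLR4, was at 17.5 ± 2.08 CPM in M_WT and 15.5 ± 1.51 CPM in M_KO (SD, n = 3 each). Cd14, the most abundant co-receptor, was at 6744, 3185 and 3544 CPM in M_WT and 3485, 3819 and 2721 CPM in M_KO. It was thus highest in M_WT_5643, while F_WT had 3062 CPM and F_KO 6299 CPM. Ly96 and Cd14 were picked for their roles, outside the rule for names.

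The 8 chaperone and trafficking genes had a median of 0.10. Unc93b1, which carries the endosomal receptors out of the endoplasmic reticulum, was at 349.8 ± 20.2 CPM in M_WT and 424.3 ± 28.7 CPM in M_KO (log2 fold change 0.27, edgeR adjusted p = 0.540). Its M_KO libraries all lay above the M_WT libraries, as did those of Slc15a4, while Hsp90b1 (gp96) and the kinase Syk lay below, so that 4 of 8 did not overlap, where 9.09% of all genes lay above and 6.95% below. Between F_WT and F_KO all 8 were lower in F_KO, with a median log2 difference of -0.14, so Unc93b1 (-0.14) and Slc15a4 (-0.07) had the other sign there. Of the 5 proteases that trim endosomal receptors, Ctsl had the smallest p (1517 ± 499.1 to 887.9 ± 217.0 CPM; log2 fold change -0.78, edgeR adjusted p = 0.499). Lgmn, Ctsb and Ctsk followed at -0.32, -0.26 and 0.67.

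The adaptors had a median of -0.10 over 5 tested genes. Myd88 was at 123.4 ± 6.41 CPM in M_WT and 124.1 ± 5.73 CPM in M_KO (log2 fold change 0.00, SE 0.11, edgeR adjusted p = 0.998), and Ticam1, which encodes TRIF, was at 38.0 ± 2.06 and 35.7 ± 8.10 CPM. Of the others, Tirap had a log2 fold change of -0.27, Pik3ap1 -0.44 and Ticam2 0.30. Among 18 kinases and ubiquitin ligases (median -0.08), Irak1 and Irak4, which encode kinases of the MyD88 complex, had the smallest p. Irak1 was at 88.8 to 97.1 CPM in M_WT and 115.5 to 127.0 CPM in M_KO (log2 fold change 0.36, edgeR adjusted p = 0.464, DESeq2 adjusted p = 0.150). Irak4 was at 19.3 to 23.7 CPM in M_WT and 25.6 to 33.7 CPM in M_KO (log2 fold change 0.43, edgeR adjusted p = 0.478, DESeq2 adjusted p = 0.350). Neither range overlapped, nor did that of Tab3, so that 3 of the 18 did not overlap, a share near the 16% of all genes. In the F pair Irak1 was at 96.9 and 105.5 CPM and Irak4 at 22.4 and 30.5 CPM in F_WT and F_KO. Peli1 (-0.90) and Ikbkb (-0.39) came next.

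Of the 6 transcription factors (median -0.08), Irf7, itself interferon-stimulated, was at 201.9, 161.0 and 153.6 CPM in M_WT and 116.3, 24.6 and 18.1 CPM in M_KO (log2 fold change -1.71, edgeR adjusted p = 0.511). The M_KO libraries of Irf7 lay below all its M_WT libraries, but F_WT, at 28.6 CPM, lay under F_KO, at 39.8 CPM. Irf3 separated in the other direction, at 33.9 to 36.2 CPM in M_WT and 37.3 to 41.4 CPM in M_KO. F_WT had 35.8 CPM of Irf3 and F_KO 40.1 CPM. Thus 1 of the 6 lay below and 1 above, where 6.95% of all genes lay below and 9.09% above. Nfkb1 had a log2 fold change of -0.39, Irf3 0.17 and Irf5 0.11. Of the 11 negative regulators (median -0.03), Socs1 was at 23.8, 17.5 and 9.72 CPM in M_WT and 10.5, 3.89 and 2.32 CPM in M_KO (log2 fold change -1.62, edgeR adjusted p = 0.478). Atf3 had a log2 fold change of -0.65, Tollip -0.24 and Nfkbia -0.35.

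The genes that Toll-like receptor signalling is known to induce had the lowest median of the pathway lists. All 11 that were tested had a lower fitted value in M_KO, at a median of -1.32 on the log2 scale, where 48.5% of all genes were lower. EdgeR called 0 of the 11, and 7 had an unadjusted p under 0.05, where 9.56% of all genes did. DESeq2 called 4, where it called 1.5% of all genes, and all 4 fell: Ccl4, Ccl3, Tnf and Il10. In counts simulated from the M libraries, 29 of 153 DESeq2 calls fell on genes simulated without a change, against 3 of 84 edgeR calls. The DESeq2 adjusted p-values are to be read with this limit. In 6 of the 11 every M_KO library lay below every M_WT library, against 6.95% of all genes. Tnf was at 259.6, 265.4 and 193.0 CPM in M_WT and 127.4, 112.3 and 146.5 CPM in M_KO (DESeq2 adjusted p = 0.0025). Il10, an inhibitory cytokine, was at 23.5, 25.5 and 9.37 CPM in M_WT and 7.02, 7.17 and 4.19 CPM in M_KO (DESeq2 adjusted p = 0.0176). Between F_WT and F_KO 9 of the 11 were lower in F_KO, with a median log2 difference of -0.997. F_WT had 195.0 CPM of Tnf and F_KO 55.8 CPM, but Il10 was at 7.52 and 7.02 CPM, and Il1b and Ptgs2 were higher in F_KO (log2 0.98 and 0.90). The receptor list and the induced list thus had medians of -0.01 and -1.32 in the same libraries. This list overlaps genes already known to be lower in these libraries, so its direction is no independent evidence. Leaving out 1 M library at a time, 10 or 11 of the 11 stayed lower, and the median ran from -0.95 (without M_WT_5643) to -1.78 (without M_KO_5944). For the interferon-stimulated list all 20 stayed lower, and the median ran from -1.18 (without M_KO_5645) to -3.60 (without M_KO_5944).

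**Figure D4:**
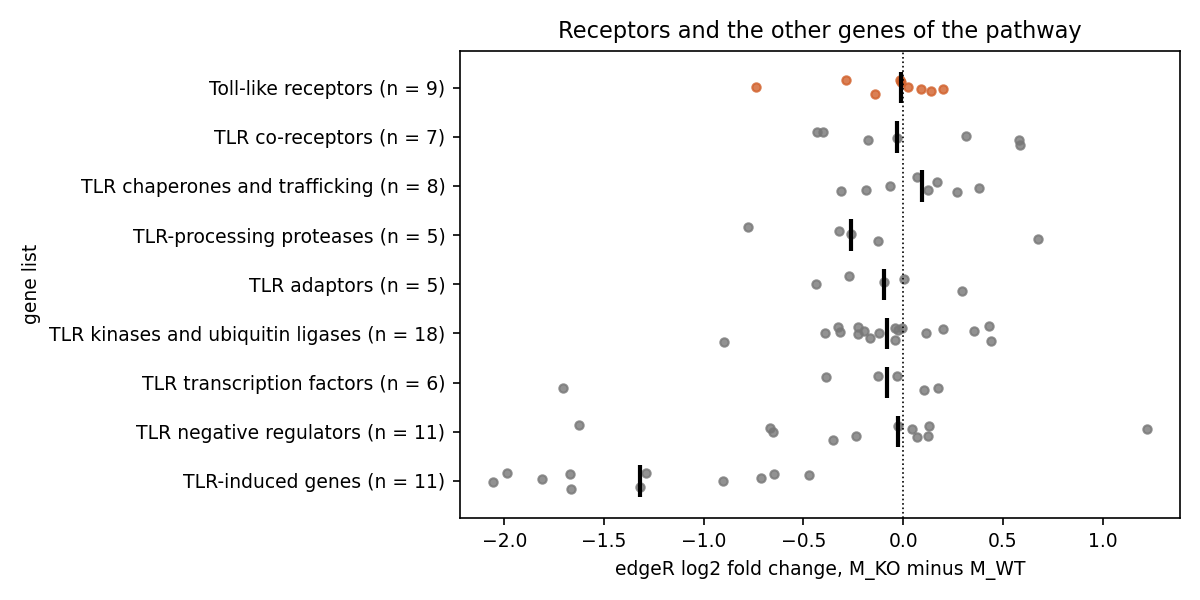
EdgeR log2 fold changes of M_KO against M_WT for the receptor genes and 8 lists of pathway genes. Each point is 1 gene, jittered vertically, and each black bar the median of its list. Medians lie between -0.26 and 0.10 for the receptors and 7 lists, and at -1.32 for the induced genes.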

How the data were processed

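RNA of 8 libraries was measured, with a NEBNext Ultra kit per the labels' protocols. Per the submitters' processing notes, the tools include DESeq2 1.16.1, HISAT2 2.0.5 and featureCounts 1.5.0-p3, and the builds GRCm38 and mm10. How multi-mapped reads and strand were handled is not given in the sources used here. As files, the authors deposited raw read counts per gene, FPKM values (per gene length and library size) and a comparison of M_KO with M_WT with log2 fold changes, p-values and a per-library signal scaled by the authors, which was not used for tests. The number of value columns that matched no sample was 0.

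The deposited counts entered edgeR 4.0.16 under R 4.3.3 (quasi-likelihood, TMM scaling, default expression filter on genotype, Benjamini-Hochberg threshold 0.05). The M fit used 6 libraries and 13646 genes. Fits over 8 libraries used 13751 genes, with genotype and letter or their interaction. Intervals of fold changes come from the quasi-likelihood statistic at the 95% level and are not adjusted for the number of genes. Log2 CPM used a prior count of 2. Tests were tried on simulated data. Alternatives used DESeq2 1.42.0 and limma 3.58.1. Groups come from the titles. Named pathway genes are up to 4 per list with the smallest edgeR p. Likeness is the mean absolute difference of centred log2 CPM over 8 libraries. The members and lists were chosen with earlier results of these data known. Shared windows were searched in GENCODE M21 transcripts, whose build is that of the files.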

Additional observations from a re-analysis of the deposited data

How the results depend on the processing

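No member was called under any alternative: of 280 member values over 3 fits, 0 passed the threshold (lowest adjusted p 0.362), 240 kept their direction and 40 did not. The count of genes called in M_KO against M_WT was 3, and 200 with DESeq2, 16 with no filter, 1 over all 8 libraries and 0 to 21 when 1 library was left out. Over 8 libraries it was 1, with 142 by DESeq2 and 0 to 3 when 1 library was left out. The interaction count was 3, with 30 by DESeq2 and 0 to 6 when 1 M library was left out. The sign of small differences moved: Tlr1 was -0.083 with limma voom, -0.10 and -0.13 with limma on log2(FPKM + 1) and log2(FPKM + 0.1), and -0.21 over 8 libraries. Tlr6 was 0.015 with limma voom, and over 8 libraries Tlr2 was -0.17 and Tlr4 0.056. The cause was not tested. Leaving out 1 library, M values ran from -0.68 to 0.45 for Tlr1, -0.057 to 0.079 for Tlr2, -0.19 to 0.16 for Tlr4, -0.35 to 0.19 for Tlr6, -0.066 to 0.46 for Tlr8, -0.090 to 0.78 for Tlr9 and -0.39 to 0.092 for Tlr13. Over 8 libraries they ran from -0.81 to 0.088 for Tlr1, -0.27 to 0.022 for Tlr2, -0.059 to 0.19 for Tlr4 and -0.29 to 0.076 for Tlr6. The interaction ran from -0.39 to 0.29 for Tlr3 and -0.37 to 0.18 for Tlr6. The order of WT levels changed for Tlr1 and Tlr8 with F_WT added or without M_WT_5643, and for Tlr9 and Tlr3 without M_WT_5643. Neighbours with separate ranges numbered 5, and 5 to 7 when 1 library was left out. No paired analysis was possible because the numbers in the titles differ between the groups. Depth limits Tlr5, at 0 to 8 counts.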
